A study of Mus musculus with 6 samples.

Results

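The 10 genes described here encode leucine-rich repeat proteins of the neuronal surface: Lrrtm1, Lrrtm2, Lrrtm3 and Lrrtm4, Lrfn1, Lrfn2, Lrfn3, Lrfn4 and Lrfn5, and Islr2. They were taken by gene symbol from the 31763 genes of the deposited table, and all 10 were among the 18970 genes that passed the count minimum (10 or more counts in 3 or more libraries). The set was chosen by gene family with the normalized counts and fold changes of morphine against saline already known, so the values in that comparison are a description and support no test. RNA came from the medial prefrontal cortex (mPFC) of male C57BL/6J mice aged 8 to 10 weeks in a conditioned place preference experiment, in which an animal learns to associate a compartment with a drug. The 3 morphine samples came from mice trained for 5 days with morphine (10 mg/kg, intraperitoneal), and the 3 saline samples from mice trained for 5 days with saline (10 ml/kg, intraperitoneal). Training sessions lasted 45 min, the tissue of both groups was taken on day 13 after a 15-min test of memory retrieval, and the labels name no transgene or other allele beyond the strain. The sources used here do not say whether 1 sample is 1 mouse, so every error below measures the spread between samples.

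LRRTM proteins sit in the postsynaptic membrane and bind neurexins on the presynaptic side, and LRRTM4 also binds the heparan sulfate chains of glypicans. The LRFN proteins, also called SALMs, include postsynaptic partners of glutamate receptors and of the scaffold PSD-95, and some of them bind presynaptic receptor phosphatases of the LAR type. Islr2, also called Linx, is a related membrane protein that associates with the receptor tyrosine kinase Ret and guides axon growth in the mouse embryo.

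The coding ends of these genes are shown because the last codons differ between members whose proteins do and do not carry the tail that binds PSD-95. Each line gives the last 30 coding bases of the GENCODE transcript with the longest complete coding sequence, and for Lrrtm4 also of a form that ends early in the gene, on GRCm38, 5′ to 3′ on the coding strand, with Lrrtm2 left out of the lines, and capitals mark the last 4 codons and the stop codon.
Lrfn1 (chr7:28467454-28467483, plus strand): accgaatggatgctgGAGAGTACCGTGTGA
Lrfn2 (chr17:49097188-49097217, plus strand): tcagagtgggtaatgGAAAGTACTGTGTAG
Lrfn4 (chr19:4612077-4612106, minus strand): gcggagcggctggagGAGAGTGTGGTGTGA
Lrfn3 (chr7:30355638-30355667, minus strand): gggcccagtcacgaaCCTGCAGGACCCTAG
Lrfn5 (chr12:61844138-61844167, plus strand): agcatgtctatgaatGCAATGTGGACTTAG
Lrrtm1 (chr6:77245101-77245130, plus strand): cagcagcctgcgaggGAATGCGAGGTGTGA
Lrrtm4 early end (chr6:80023137-80023166, plus strand): atctctggctccaggGAGTGTGAGGTATGA
Lrrtm4 late end (chr6:80809160-80809189, plus strand): gccatttatctggagAGAATAACAAACTAA
Lrrtm3 (chr10:63930058-63930087, minus strand): atcagtgaccataaaCCACAGCTGGCCTGA
Islr2 (chr9:58197738-58197767, minus strand): aacggcaactacaggCAGACAGCGGGCTGA

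Over the 12 bases of those last 4 codons, Lrfn1 and Lrfn2 were identical at 10 and Lrfn1 and Lrfn4 at 9, whereas Lrfn1 shared 0 bases with Lrfn3 and 2 with Lrfn5. Lrrtm1 and the early end of Lrrtm4 shared 9 of 12 bases, against 1 of 12 between Lrrtm1 and the late end of Lrrtm4. Lrrtm2, whose bases are not printed, shared 9 of 12 with Lrrtm1 and 10 of 12 with the early end of Lrrtm4. The counts are per gene and do not separate these Lrrtm4 forms.

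Several of the genes are nested in others, whose reads could be counted with theirs. On GRCm38, Lrrtm1 (chr6:77242689-77257791, plus strand) lies within Ctnna2, Lrrtm2 (chr18:35209003-35215024, minus strand) within Ctnna1, and Lrrtm3 (chr10:63928472-64090277, minus strand) within Ctnna3, each on the opposite strand of an alpha-catenin gene. The exons of Lrrtm1 and Lrrtm3 shared 0 bases with those hosts, and those of Lrrtm2 shared 95 bases with Ctnna1, 1.58% of its exons. Lrfn1 (chr7:28451980-28468242, plus strand) lies within Samd4b and Lrfn4 (chr19:4611785-4615667, minus strand) within Pcx, also on the opposite strand and with 0 shared exon bases. Lrrtm4 (chr6:80018877-80810143, plus strand) spans 791267 bases, and 25.1% of its exon bases overlap the antisense gene Gm4409, which had 32 to 52 counts a library. Lrfn2 (chr17:48932379-49097588, plus strand), Lrfn3 (chr7:30355489-30362772, minus strand) and Lrfn5 (chr12:61523150-61858342, plus strand) share no exon bases with another protein-coding gene, though 145 exon bases of Lrfn2 lie opposite the annotated miRNA gene Gm44304. Islr2 (chr9:58196297-58204319, minus strand) shares 181 exon bases, 3.06% of its exons, with Islr on the same strand, and 55 with a pseudogene on the opposite strand. Whether the authors' counting used the strand is not stated in the labels or methods, so reads from shared exon bases cannot be assigned to one gene with certainty.

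Library totals were 17984153 to 23529592 counts in the morphine group and 19543377 to 22776251 counts in the saline group. Saline sample 1 stood apart: 15 of 16 olfactory bulb markers were more than 2 times as high there as in any other library, against 0 of 16 in each of the other 5 libraries. The summed level of the 12 bulb markers tested was 148.9 to 172 CPM (counts scaled to a common library size) in the morphine group and 142.2 to 587 CPM in the saline group, with 587 CPM in saline sample 1. Neuronal markers were abundant in every library, at a summed 7051 to 7583 CPM in the morphine group and 6964 to 7203 CPM in the saline group. Fold changes of the 10 genes are therefore given with and without saline sample 1.

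Of the 10 genes, Islr2, Lrfn2 and Lrrtm2 had morphine values that all lay above all saline values, and the other 7 genes had overlapping groups. These 3 of 10 stand beside 5.98% of all genes tested with the morphine group wholly above the saline group, and the 0 of 10 wholly below stand beside 7.32%. The same 3 genes had an unadjusted p under 0.05 in the higher direction in the quasi-likelihood test of edgeR, against 2.77% of all genes, and 0 of 10 did so in the lower direction, against 4.96%. After Benjamini-Hochberg adjustment over all 18970 genes, 0 of 10 members and 0% of all genes passed in edgeR, and 1 member, Islr2, passed in DESeq2, against 0.0791% of all genes. Since this contrast was known when the genes were chosen, these counts describe the choice and nothing is read from them. The median log2 fold change was 0.04 over the 10 genes and -0.01 over all genes tested, with 7 of the 10 values positive and 3 negative. Bulk RNA cannot tell more cells of a type from more RNA per cell.

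**Figure D1:**
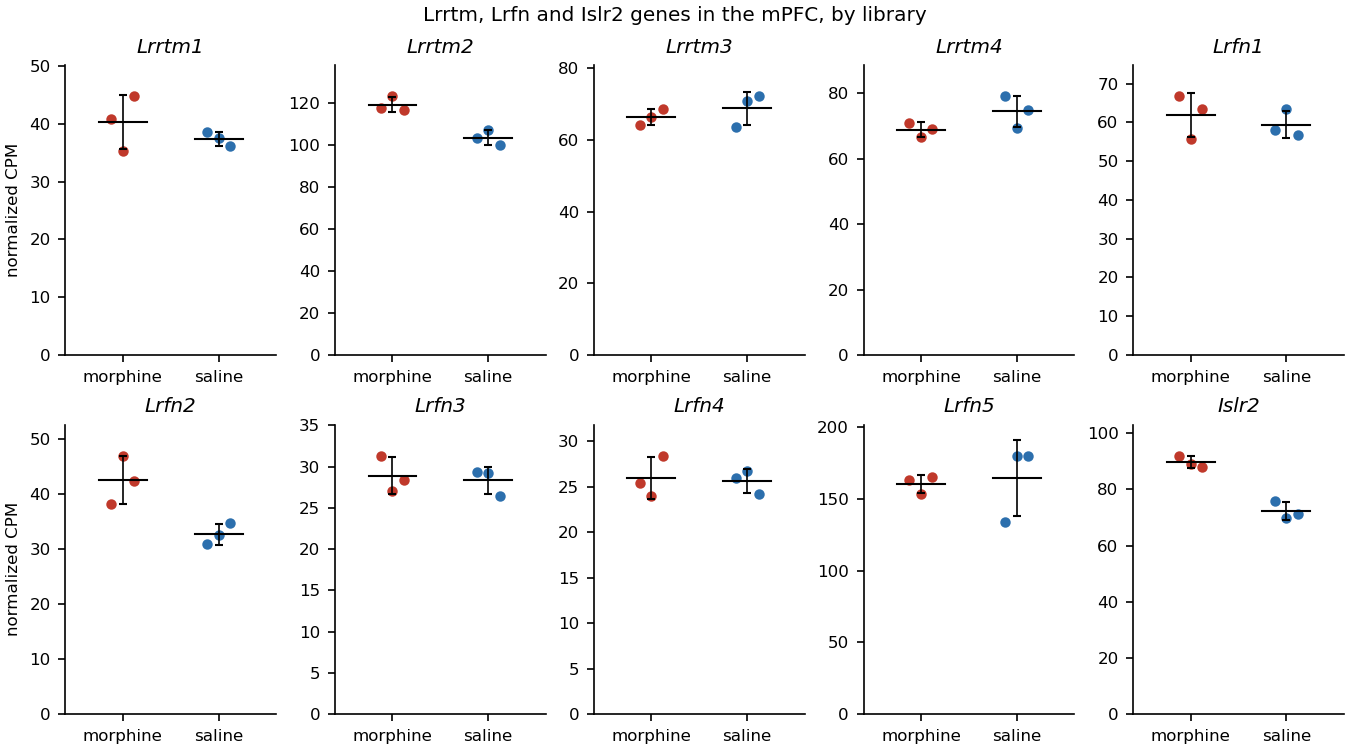
Normalized CPM (vertical axis, from 0) of each of the 10 genes in the 3 morphine (left, red) and 3 saline (right, blue) libraries, 1 point a library, with the mean as a long bar and the SD as an error bar. Morphine and saline points are separate for Lrrtm2, Lrfn2 and Islr2 and overlap for the other 7 genes.

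Islr2 had 92.1, 89.1 and 88.1 CPM in the morphine samples, against 76.0, 69.9 and 71.3 CPM in the saline samples. The lowest morphine value was thus above the highest saline value, which was that of saline sample 1. The means were 89.8 ± 2.06 CPM in the morphine group and 72.4 ± 3.21 CPM in the saline group (SD, n = 3 each), a ratio of 1.24 with a 95% interval of 1.14 to 1.35. On the log2 scale the difference was 0.31 (SE 0.05), and it was 0.35 (SE 0.06) without saline sample 1. The values rest on 1665, 1615 and 2036 counts in the morphine samples and on 1762, 1482 and 1396 counts in the saline samples.

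The start of Islr2 is shown because it almost coincides with the start of Islr, the adjoining gene for another leucine-rich repeat protein, on the same strand. The window, credited to RefSeq on GRCm38.p6, covers 250 bases before to 50 after the first base of Islr2, and the 13 capitals run from the first base of Islr2 to the base before the first base of Islr.
Islr2 start (chr9:58204270-58204569, minus strand): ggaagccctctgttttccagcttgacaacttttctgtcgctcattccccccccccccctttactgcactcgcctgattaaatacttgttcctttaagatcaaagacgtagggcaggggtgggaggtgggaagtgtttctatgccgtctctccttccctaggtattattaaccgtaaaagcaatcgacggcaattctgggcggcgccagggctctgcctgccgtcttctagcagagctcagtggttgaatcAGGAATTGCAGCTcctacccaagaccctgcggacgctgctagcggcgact
The promoter table matched 7 of the 10 genes and held 3 windows for Islr2. None of the 3 windows held the letters TGACGTCA (the cAMP response element), GCGTGGGCG (an EGR site), TGACTCA (an AP-1 site) or CACGTG (an E-box) on either strand, which 1.79%, 0.612%, 5.2% and 7.15% of all 32851 promoter windows held. That says only that these letters are not in these windows.

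Islr, which shares the region of that start, was far lower in counts than Islr2. It had 157, 186 and 220 counts in the morphine samples, against 510, 191 and 187 counts in the saline samples. The high value was that of saline sample 1, and the log2 difference of Islr was -0.52 (SE 0.29) with all libraries and 0.04 (SE 0.13) without that sample. Of the receptor tyrosine kinases, Ntrk2, the BDNF receptor TrkB, had a log2 difference of 0.01 (SE 0.05), and Ntrk3, the neurotrophin-3 receptor TrkC, one of -0.01 (SE 0.06). Without saline sample 1 these were 0.01 for Ntrk2 and -0.07 for Ntrk3. Ret, the GDNF co-receptor, was low, at 3.70 ± 0.669 CPM in the morphine group and 4.07 ± 1.74 CPM in the saline group (SD, n = 3 each). Of these 3 kinase genes, 0 had an unadjusted p under 0.05, against 2.77% of all genes in the higher and 4.96% in the lower direction. That count is near the background.

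Among the Lrfn genes, Lrfn2 encodes SALM1, which associates with NMDA receptors and ends in a PSD-95-binding tail. It had 38.2, 47.0 and 42.4 CPM in the morphine samples, against 30.9, 32.5 and 34.7 CPM in the saline samples. The groups did not overlap, and the morphine samples were more spread than the saline samples. The means were 42.5 ± 4.40 CPM in the morphine group and 32.7 ± 1.89 CPM in the saline group (SD, n = 3 each), a ratio of 1.3 with a 95% interval of 1.14 to 1.49. The log2 difference was 0.38 (SE 0.09) with all libraries and 0.34 (SE 0.08) without saline sample 1.

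Lrfn1 and Lrfn4 encode SALM2 and SALM3, whose coding ends resemble that of Lrfn2, but their groups overlapped. Lrfn1 had 66.8, 55.7 and 63.6 CPM in the morphine samples, against 58.1, 63.5 and 56.8 CPM in the saline samples. Lrfn4 had 25.4, 24.0 and 28.4 CPM in the morphine samples, against 26.0, 26.7 and 24.2 CPM in the saline samples. The log2 difference was 0.06 for Lrfn1, with a 95% interval of -0.11 to 0.23, and 0.02 for Lrfn4, with an interval of -0.18 to 0.21. Neither upper bound reaches the value of 0.38 that was fitted for Lrfn2. The 95% interval of Lrfn2 itself, 0.19 to 0.57 on the log2 scale, overlaps both, and the difference between genes was not tested.

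Lrfn3 and Lrfn5 encode SALM4 and SALM5, which lack that tail. Lrfn3 had 31.4, 27.04 and 28.3 CPM in the morphine samples, against 29.4, 29.2 and 26.5 CPM in the saline samples, and a log2 difference of 0.03 (95% interval -0.16 to 0.21). Lrfn5, whose protein binds LAR-type phosphatases, had 163, 153 and 165 CPM in the morphine samples, against 134, 180 and 179 CPM in the saline samples. Saline sample 1 was the lowest of the 6 libraries for Lrfn5, while the other 2 saline samples were the highest. The log2 difference of Lrfn5 was -0.03 (SE 0.10) with all libraries and -0.16 (SE 0.05) without saline sample 1, where its unadjusted p fell under 0.05 and its adjusted p did not. Without that sample, 3 of the 10 genes were called in the higher direction, against 4.14% of the 18671 genes then tested, and 1, Lrfn5, in the lower direction, against 7.53%. Islr2 and Lrfn2 then passed the adjusted threshold in edgeR, 2 of 10 genes against 0.996% of all genes.

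Lrrtm2, which holds AMPA receptors at excitatory synapses, was the most abundant Lrrtm gene. It had 118, 123 and 117 CPM in the morphine samples, against 104, 107 and 100.1 CPM in the saline samples. The groups did not overlap, and the spread within groups was the smallest of the 10 genes. The means were 119 ± 3.51 CPM in the morphine group and 104 ± 3.42 CPM in the saline group (SD, n = 3 each), a ratio of 1.15 with a 95% interval of 1.06 to 1.25. The log2 difference was 0.20 (SE 0.05) with all libraries and 0.20 (SE 0.06) without saline sample 1. Ctnna1, the alpha-catenin gene around Lrrtm2, had a log2 difference of 0.14 with all libraries (SE 0.07) and without saline sample 1 (SE 0.08). Its morphine values also lay wholly above its saline values, as did those of 5.98% of all genes tested. The part of the 95 shared exon bases in the log2 difference of either gene was not tested.

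Lrrtm1, a neurexin-binding protein as well, had 40.9, 35.3 and 44.8 CPM in the morphine samples, against 38.6, 37.6 and 36.2 CPM in the saline samples. Its morphine samples included both the highest and the lowest of the 6 values, and the log2 difference was 0.11 (95% interval -0.09 to 0.30). Lrrtm3 had 64.3, 66.5 and 68.8 CPM in the morphine samples, against 63.5, 70.9 and 72.2 CPM in the saline samples, with a log2 difference of -0.05 (95% interval -0.19 to 0.09). The catenin genes around them had log2 differences of 0.02 (SE 0.05) for Ctnna2 and -0.23 (SE 0.18) for Ctnna3, which had only 45 to 73 counts a library. Without saline sample 1 they were -0.01 for Ctnna2, with the sign turned, and -0.25 for Ctnna3. The groups of Ctnna2 overlapped. Ctnna3 had 2.49 to 2.94 CPM in the morphine group, wholly below the 3.15 to 3.32 CPM of the saline group, as had 7.32% of all genes tested. Lrrtm4 had 71.1, 66.6 and 69.1 CPM in the morphine samples, against 79.1, 69.6 and 74.8 CPM in the saline samples, with a log2 difference of -0.11 (95% interval -0.25 to 0.02). Only the lowest saline value of Lrrtm4 lay within the range of the morphine values. Without saline sample 1, the log2 differences were 0.13 for Lrrtm1, -0.10 for Lrrtm3, -0.06 for Lrrtm4, 0.05 for Lrfn1, 0.06 for Lrfn3 and 0.03 for Lrfn4, none of them called.

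**Figure D2:**
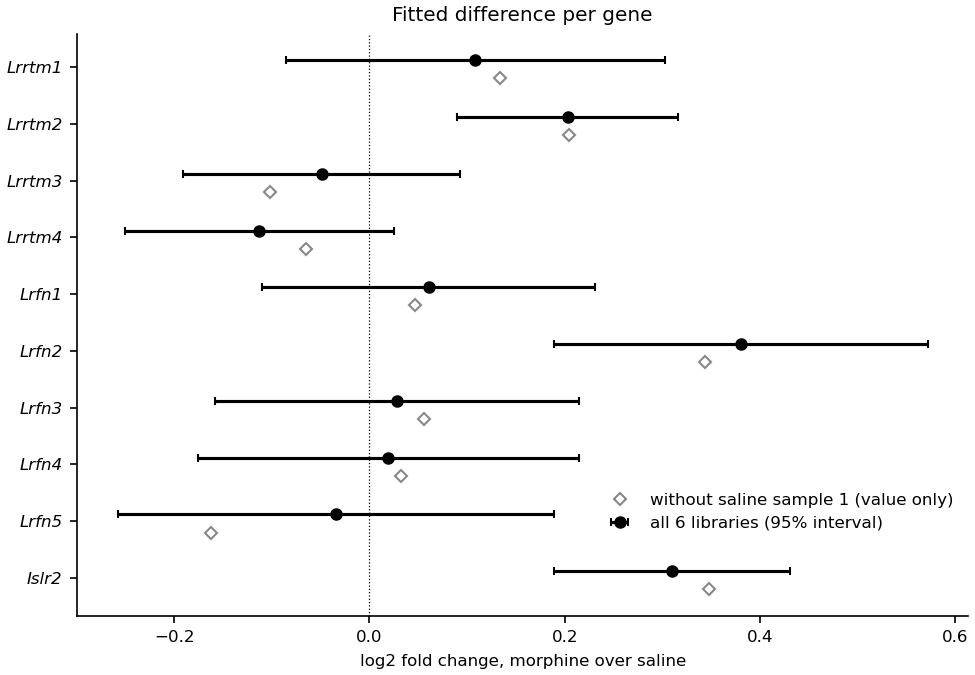
Log2 fold change, morphine over saline (horizontal axis), of each of the 10 genes with all 6 libraries (filled circles, bars for the 95% interval) and without saline sample 1 (open diamonds, values only). The intervals of Islr2 (0.31), Lrfn2 (0.38) and Lrrtm2 (0.20) lie above 0, and Lrfn5 is the gene whose diamond (-0.16) lies farthest below its circle (-0.03).

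The introns of Lrrtm4 hold 8 genes of the annotation class TEC, a provisional class for transcribed stretches that still lack experimental support, all on the strand of Lrrtm4. All 8 had lower fitted values in the morphine group, with log2 differences from -0.63 to -0.15 and a median of -0.44. Of these 8, 6 had an unadjusted p under 0.05 in the lower direction, against 18% of the 1683 TEC genes tested, and 4 had morphine values wholly below the saline values, against 17.6%. At the adjusted threshold, 0 of the 8 passed in edgeR and 0 in DESeq2. These genes were listed after the data were seen, and since they lie on 1 strand within 1 gene they are not taken as independent. TEC genes as a class were also low, with a median log2 difference of -0.24. The 1223 TEC genes within introns of other protein-coding genes, on the same strand, had a median of -0.28. Of those, 21.4% had an unadjusted p under 0.05 in the lower direction and 19.7% had morphine values wholly below. Gm48328, a TEC gene within Lrfn5 on the same strand, had a log2 difference of -0.13 (SE 0.22).

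The largest of the 8 differences was that of Gm44228, which starts 198.6 kb into Lrrtm4. It had 8.46, 10.8 and 8.40 CPM in the morphine samples, against 13.2, 14.0 and 15.7 CPM in the saline samples. Gm44240, 29.8 kb into the gene, had 14.0, 13.1 and 13.4 CPM in the morphine samples, against 17.2, 18.01 and 21.8 CPM in the saline samples. Both had separate groups, with log2 differences of -0.63 (SE 0.13) for Gm44228 and -0.49 (SE 0.11) for Gm44240. Summed over the 8 genes, the level was 74.5, 84.5 and 64.2 CPM in the morphine samples, against 86.6, 98.0 and 116.9 CPM in the saline samples, so the groups did not overlap. As a percentage of the exonic Lrrtm4 level, that sum was 105%, 127% and 92.9% in the morphine samples and 109%, 141% and 156% in the saline samples, and the groups overlapped. Without saline sample 1, 7 of the 8 had an unadjusted p under 0.05 in the lower direction, against 33.1% of TEC genes, and 4 passed the adjusted threshold, against 6.28%.

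**Figure D3:**
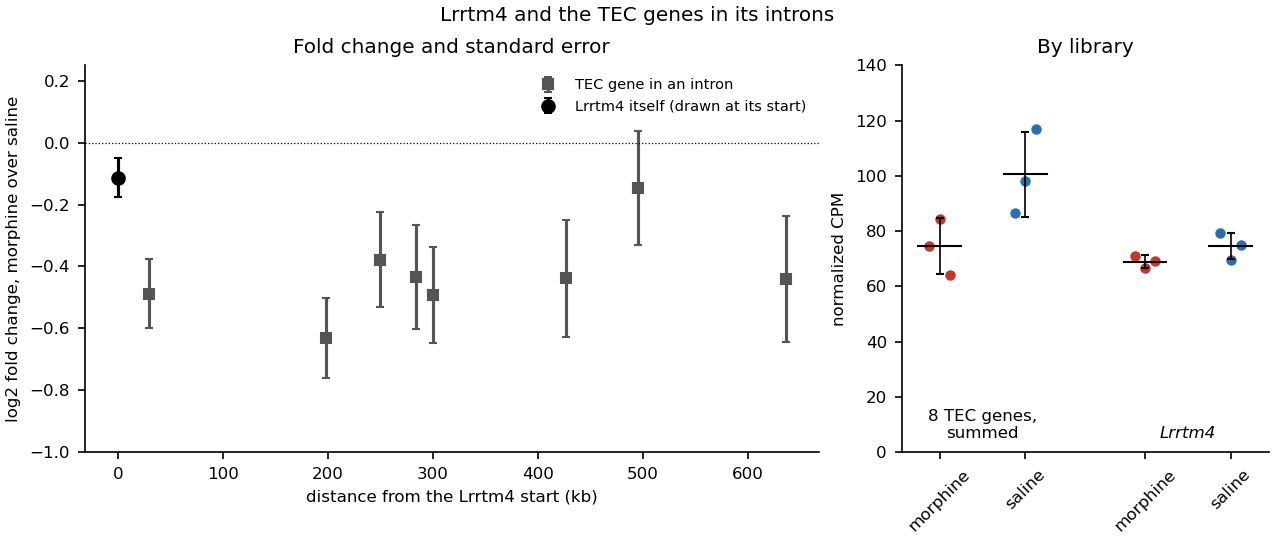
Left, log2 fold change, morphine over saline, with its SE, of the 8 TEC genes in Lrrtm4 introns against their distance from the Lrrtm4 start in kb, and of Lrrtm4 itself. Right, normalized CPM by library of the 8 genes summed and of Lrrtm4 (points, with mean and SD): the summed morphine values (64.2 to 84.5 CPM) lie below the saline values (86.6 to 116.9 CPM), while those of Lrrtm4 overlap.

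Levels of different genes were compared per length, as the deposited FPKM (fragments per kilobase of exon, scaled to library size), over all 6 libraries. Lrrtm2 had the highest mean, 19.6 FPKM (range 17.7 to 21.9), followed by Lrfn5 with 17.0, Lrrtm3 with 15.9, Lrfn1 with 15.5 and Islr2 with 13.7 FPKM. Then came Lrrtm1 with 12.8, Lrfn2 and Lrrtm4 with 11.7 each, Lrfn3 with 9.90 and Lrfn4 with 7.65 FPKM (range 7.19 to 8.30). Over all 6 libraries, neighbours in this order had overlapping ranges, except that Lrrtm4 lay above Lrfn3 and Lrfn3 above Lrfn4 in 6 of 6 libraries, with separate ranges. The order of Lrfn2 and Lrrtm4 differed between the groups. Lrfn2 had 11.8, 14.8 and 12.99 FPKM and Lrrtm4 11.4, 10.9 and 11.04 FPKM in the morphine samples, against 9.83, 10.1 and 10.85 FPKM for Lrfn2 and 13.1, 11.3 and 12.2 FPKM for Lrrtm4 in the saline samples. Lrfn2 was thus above Lrrtm4 in all 3 morphine samples and below it in all 3 saline samples, which follows from the contrast known when the genes were chosen and was not tested. All 10 were well expressed: between 70% of the genes tested (for Lrfn4) and 88.8% (for Lrrtm2) had a lower mean FPKM.

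**Figure D4:**
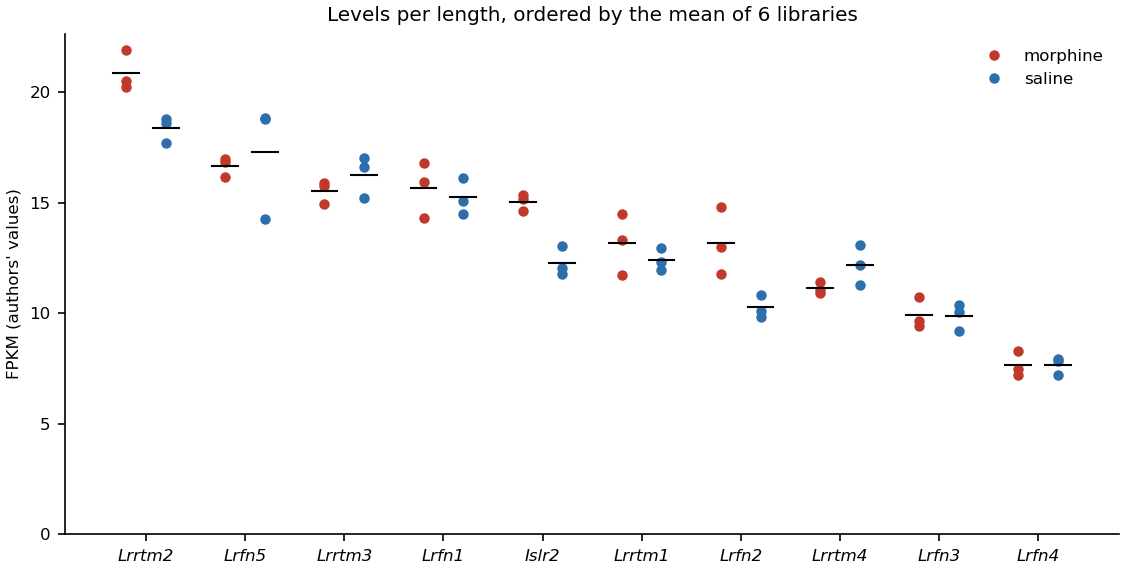
FPKM (vertical axis, from 0) of the 10 genes in the 3 morphine (left, red) and 3 saline (right, blue) libraries, 1 point a library with the group mean as a bar, and genes ordered by their mean over 6 libraries. Lrrtm2 is highest at a mean of 19.6 FPKM and Lrfn4 lowest at 7.65 FPKM, and most neighbours overlap.

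The level of each family as a whole was set beside the share that each member took of it. The 4 Lrrtm genes summed to 60.1, 60.3 and 61.6 FPKM in the morphine samples, against 59.9, 59.0 and 58.9 FPKM in the saline samples, which lay closely below. Lrrtm2 made up 34.1%, 36.3% and 32.8% of that sum in the morphine samples, against 31.1%, 31.9% and 30.1% in the saline samples, and Lrrtm4 made up 19%, 18.1% and 17.9% in the morphine samples, against 21.9%, 19.1% and 20.7% in the saline samples. The share of Lrrtm2 was thus higher, and that of Lrrtm4 lower, in each morphine sample than in each saline sample. For Lrrtm4 the closest values were 19% (morphine) and 19.1% (saline). The 5 Lrfn genes summed to 63.6, 61.9 and 63.8 FPKM in the morphine samples, against 57.4, 63.0 and 60.6 FPKM in the saline samples, with overlapping groups. Lrfn2 made up 18.5%, 23.9% and 20.4% of the Lrfn sum in the morphine samples, against 17.1%, 16% and 17.9% in the saline samples, again without overlap. Shares of a sum depend on each other. They follow from the contrast known when the genes were chosen and were not tested.

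The spread between samples of 1 group differed widely among the genes. It was smallest for Lrrtm2 (SD of 0.04 on the log2 scale) and Islr2 (0.05), and largest for Lrfn5 (0.18), Lrrtm1 (0.13) and Lrfn2 (0.12). For Lrfn5 the SD was 26.6 CPM in the saline group and 6.38 CPM in the morphine group. Saline sample 1 had 134 CPM of Lrfn5, apart from the 180 and 179 CPM of saline samples 2 and 3. The median gene with at least 10 CPM had an SD of 0.09. Lrfn2 thus had the largest difference between groups and one of the larger spreads, and Lrrtm2 a smaller difference with a small spread.

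On the presynaptic side, 11 of 12 partner genes were tested and their median log2 difference was 0.01, or -0.01 without saline sample 1. In the higher direction 0 of 11 had an unadjusted p under 0.05, against 2.77% of all genes, and in the lower direction 1 did, against 4.96%, a count near the background. That gene was Nrxn3, which encodes a neurexin. Nrxn3 had 530, 500.5 and 506 CPM in the morphine samples, against 606, 531 and 558 CPM in the saline samples, a log2 difference of -0.14 (SE 0.06). It was highest in saline sample 1, and without that sample the difference was -0.09 (SE 0.05) and no longer called. Among 15 genes of postsynaptic scaffolds and glutamate receptors, the median was 0.02, or -0.01 without saline sample 1, and 1 was called, in the lower direction and near the 4.96% of all genes. It was Gria4, an AMPA receptor subunit. Gria4 had 162, 154 and 152 CPM in the morphine samples, against 177, 176 and 172 CPM in the saline samples, with a log2 difference of -0.16 (SE 0.05) that was still called without saline sample 1. Dlg4, the gene of PSD-95, had a log2 difference of 0.05 (SE 0.06) with all libraries and -0.01 (SE 0.05) without saline sample 1.

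Of 33 other neuronal surface genes with leucine-rich repeats, 6 had an unadjusted p under 0.05 in the higher direction, against 2.77% of all genes, and 0 in the lower direction, against 4.96%, with a median log2 difference of 0.07. At the adjusted threshold, 0 passed in edgeR and 0 in DESeq2. Lingo3 and Lingo1, of the LINGO family of neuronal receptors, had differences of 0.37 (SE 0.11) for Lingo3 and 0.24 (SE 0.09) for Lingo1, which were 0.27 (SE 0.09) and 0.15 (SE 0.06) without saline sample 1. Lingo3 had 37.5, 31.7 and 36.6 CPM in the morphine samples, against 23.1, 31.2 and 27.5 CPM in the saline samples, with the lowest value in saline sample 1. Rtn4rl2, a Nogo receptor homologue, had a difference of 0.32 (SE 0.12), and Flrt3, a latrophilin ligand, one of 0.27 (SE 0.08), and without saline sample 1 these were 0.21 for Rtn4rl2 and 0.31 for Flrt3. Elfn2, which binds metabotropic glutamate receptors across the synapse, had 249, 263 and 266 CPM in the morphine samples, against 222, 234 and 228 CPM in the saline samples, a difference of 0.19 (SE 0.05) with all libraries and 0.17 without saline sample 1. Slitrk1, which binds LAR-type phosphatases, had a difference of 0.12 (SE 0.05) and was the only one of the 6 no longer called without saline sample 1. Without that sample 8 genes of this list were called higher, against 4.14% of all genes, and 3 lower, against 7.53%, with the lower count near the background.

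Markers of excitatory neurons had fitted differences in the same direction as Islr2, Lrfn2 and Lrrtm2. All 6 were genes with positive log2 differences, with a median of 0.19. Of them 1, Neurod6, had an unadjusted p under 0.05, against 2.77% of all genes in the higher direction. Their summed level was 4670 to 5130 CPM in the morphine group and 3996 to 4903 CPM in the saline group, where saline sample 1 had the lowest value, and the median was 0.09 without that sample. Upper layer markers were positive in 7 of 7, with a median of 0.13 and summed levels of 2029 to 2314 CPM in the morphine group and 1833 to 2179 CPM in the saline group, and the median was 0.07 without saline sample 1. Oligodendrocyte markers were positive in 8 of 8, with a median of 0.12 and summed levels of 1387 to 1694 CPM in the morphine group and 1210 to 1602 CPM in the saline group. Without saline sample 1 their median was 0.20 and 6 of 8 had an unadjusted p under 0.05 in the higher direction, against 4.14% of all genes. With all libraries 0 of 8 did, against 2.77% of all genes. Markers of striatal-type neurons summed to 135 to 142 CPM in the morphine group and 121.8 to 125 CPM in the saline group, without overlap. No share over all genes was computed for such sums. Of the 8 striatal-type markers, 6 had positive differences and 1, Ppp1r1b (0.37, SE 0.10), was called, against 2.77% of all genes. Their median was 0.06, or 0.16 without saline sample 1. Deep layer markers had 4 positive and 4 negative differences, with a median of 0.004, or 0.13 without saline sample 1. Interneuron and astrocyte markers were also 4 and 4, with medians of 0.01 and 0.02, or 0.04 for both without that sample. The interneuron markers summed to 591.7 to 624.9 CPM in the morphine group and 566.8 to 1022 CPM in the saline group. The 1022 CPM was that of saline sample 1. With all libraries, Hs3st4 (deep layer, 0.15, SE 0.07) and Aldh1l1 (astrocytes, 0.17, SE 0.08) were called higher, each 1 of 8 against 2.77% of all genes. Adarb2 (interneurons, -0.52, SE 0.18) was called lower, 1 of 8 against 4.96%, and was highest in saline sample 1. Neuronal markers were positive in 9 of 10 (median 0.08), microglia in 5 of 7 (0.02), endothelial and mural in 4 of 7 (0.02) and oligodendrocyte precursors in 3 of 6 (-0.005). Rgs5 (endothelial and mural, 0.13, SE 0.05) was called higher, 1 of 7 against 2.77% of all genes. Cspg4 (oligodendrocyte precursors, -0.19, SE 0.07) was called lower, 1 of 6 against 4.96%. The part of the cell type markers in the values of the 10 genes was not tested.

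A search for like patterns left out genes with a Gm or Rik name or a mean under 5 CPM. The genes whose pattern over the 6 libraries came closest to each of the 3 separated members were found among 10999 genes. The measure was the root mean square difference of log2 CPM, each gene centred at its mean. For Islr2 the closest genes were Cyb561a3 (0.04), Amz1 (0.05) and Pde10a (0.05), beside a spread of Islr2 itself of 0.16. For Lrfn2 they were Dnase2a (0.07), Wdr38 (0.07) and Slc37a4 (0.08), beside 0.21. For Lrrtm2 they were Fam43b (0.01), Foxo6 (0.02) and Cyb5d1 (0.02), beside 0.11. With 6 libraries in 2 groups, such likeness is a description only.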

How the data were processed

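The authors deposited a table that gives each gene a raw count and an FPKM value in 3 morphine and 3 saline libraries, made from rRNA-depleted RNA with a directional kit. The submitters' processing notes name the build mm10, the counter HTSeq 0.11.2, the aligner HISAT2 2.1.0, the trimmer cutadapt 1.9.3 and StringTie 1.3.3, besides limma 3.40.6, DESeq 1.8.3 and DESeq2 1.26.0. The deposited FPKM values are the deposited counts rescaled by gene length and library, as checked over 13342 genes with 50 or more counts in each library. Counts were normalized by TMM and tested in edgeR 4.0.16 (R 4.3.3; quasi-likelihood, two-sided), with Benjamini-Hochberg adjustment over all 18970 genes tested. The study's methods name DEGseq, which uses no spread between replicates and was not used. Alternatives were DESeq2 1.42.0, limma 3.58.1 on FPKM, other scalings and filters, a replicate block and leaving out each library. CPM are TMM-normalized, and the position and nesting of genes come from GENCODE vM21. The scripts were tested on simulated data. Partner genes were named at an unadjusted p under 0.05, or, with none, the 2 of highest mean CPM. Ret, Dlg4 and the named cell type markers were added after their values were seen. The members and lists were chosen with earlier results of these data known.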

Additional observations from a re-analysis of the deposited data

How the results depend on the processing

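The differences of Islr2, Lrfn2 and Lrrtm2 kept their direction and an unadjusted p under 0.05 in all 14 alternatives, at 0.27 to 0.35 for Islr2, 0.30 to 0.45 for Lrfn2 and 0.18 to 0.23 for Lrrtm2 on the log2 scale. Members higher at an unadjusted p numbered 3, and 3 to 4 when 1 library was left out. Members lower numbered 0, and 0 to 1 when 1 library was left out (Lrfn5 without saline sample 1, Lrrtm4 without saline sample 2), and Lrrtm1 was called higher without morphine sample 2. At the adjusted threshold, 0 members passed in edgeR, 1 with DESeq2, 2 with no count filter and 0 to 2 when 1 library was left out. Over all genes, 525 passed as higher and 940 as lower at an unadjusted p, against 861 and 1638 with no count filter, 594 lower with DESeq2, and 250 to 773 higher and 442 to 1406 lower when 1 library was left out. Adjusted calls were 0 higher and 0 lower, against 3 and 12 with DESeq2, 53 and 226 with no filter, and 0 to 25 and 0 to 161 when 1 library was left out, with the highest counts without saline sample 1. Partner and related genes were 6 higher and 2 lower, against 6 lower with no filter, 1 lower with RLE scaling, and 3 to 11 higher and 1 to 5 lower when 1 library was left out. The causes were not tested. The order of the 10 levels was the same for TMM-scaled counts per length.

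With the replicate number as a block, 434 genes passed as higher and 881 as lower at an unadjusted p, with 3 members higher and 0 past the adjusted threshold. Same-numbered samples did not deviate together (correlations 0.0153, 0.00133 and -0.0211). These values cannot exclude a pairing, because saline sample 1 stood apart from the other saline samples, and the labels do not state one. With 3 samples a group, the 95% intervals of the other 7 genes include 0 and differences in either direction.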
